A study of Ovis aries with 12 samples.

Results

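The imprinted miR-379 to miR-656 cluster is a long row of miRNA hairpins in the DLK1-DIO3 region. Its members were chosen by name. An entry of the count table belongs to the cluster if 1 of its miRNA names, without species prefix, arm, copy number and letter suffix, is 1 of 39 listed names. The rule found 39 entries among the 470 of the table, and these stand for 29 of the listed names. The names miR-300, miR-496, miR-544, miR-654, miR-668, miR-889, miR-1193, miR-3955, miR-3956 and miR-3957 matched no entry and were not analysed here. Of the 39 entries, 37 carry a sheep name (prefix oar). The others are rno-miR-409b, named after rat, and bta-miR-656, a joined entry that holds the names of several mammals.

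In mammals these hairpins are expressed from the maternal chromosome, while the protein genes DLK1, RTL1 and DIO3 of the same region are read from the paternal one. The hairpins lie downstream of the noncoding gene MEG3, called GTL2 in sheep, and are thought to be cut from long shared transcripts, so that many mature miRNAs can come from 1 transcription unit. In mice and humans the cluster is best known for its expression in embryo, placenta and brain. In the mouse hind limb, blocking miR-329, miR-487b, miR-494 or miR-495 aided the recovery of blood flow after an artery was closed. A hairpin can give a mature miRNA from its 5p arm and another from its 3p arm, and 1 of them is usually the more abundant.

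The study compared the small RNA of pulmonary artery endothelial cells, the cells that line the vessel, between lambs with persistent pulmonary hypertension of the newborn (PPHN) and control lambs. The PPHN group has 6 libraries, numbered 7 to 12, from lambs whose ductus arteriosus was ligated in the womb near day 125 of pregnancy and remained shut for 5 to 7 days. The control group has 6 libraries, numbered 1 to 6, from lambs that had a sham operation, also near day 125 of pregnancy. In both groups the cells came from the main pulmonary artery, were selected with CD31 antibody beads and were grown in serum between passages 2 and 5, so the levels are those of cultured cells. The labels do not say that each library is its own lamb, so p-values measure only the spread between these libraries, which may be technical.

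Library totals over the listed entries ranged from 2250077 counts in PPHN 11 to 17740932 in PPHN 7. Levels below are CPM, which set each entry's counts against the listed counts of its library, with TMM scaling. Endothelial miRNAs had entries for 6 of 6 listed names and summed to 48955 to 117920 CPM in PPHN and 70031 to 153160 CPM in control. The entry mmu-miR-126b-3p, a form of the endothelial miR-126, was nearly missing in PPHN 8, PPHN 11 and control 2, at 195, 176 and 161 CPM, against at least 10588 CPM in each of the other libraries. The summed level, the joint variation, the median log2 fold change and the arm differences are therefore also given without these 3 libraries. Smooth muscle miRNAs, with entries for miR-143 and miR-145 but none for miR-1, miR-133a and miR-133b, summed to 2158 to 253920 CPM in PPHN and 2212 to 301460 CPM in control. Fibroblast miRNAs (4 of 4 names) summed to 496 to 10030 CPM in PPHN and 3505 to 20301 CPM in control. Epithelial miRNAs (1 of 6 names) reached 29.5 to 150 CPM in PPHN and 0 to 398 CPM in control, and blood miRNAs (2 of 5 names) 15.4 to 203 CPM in PPHN and 69.0 to 900 CPM in control.

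The cluster was led by a single mature miRNA. The entry oar-miR-411a-5p averaged 1188 ± 1033 CPM in the PPHN libraries and 1441 ± 1127 CPM in the control libraries (SD, n = 6 each), and it held 44.7% of all 235320 counts of the 39 entries. By its mean over the 12 libraries, 1314.5 CPM, it ranked 55 of the 470 entries. The next 4 entries were oar-miR-409-3p, rno-miR-409b, oar-miR-410-3p and oar-miR-3958-3p, with means of 482, 439, 185 and 171 CPM over all libraries. Together with oar-miR-411a-5p they held 86.7% of the counts of the cluster, and the other 34 entries shared 13.3%. The entry rno-miR-409b nearly repeated oar-miR-409-3p, which in human prostate cancer cells is known for promoting invasion. Its counts were 0.910 times those of oar-miR-409-3p in all and 0.876 to 0.953 times in each library, so reads of 1 miRNA may be counted in both entries. All totals, sums and shares of the cluster given here keep both, so they would change if the reads are shared. With sheep-named entries only, the log2 ratio of mean summed levels, PPHN over control, was -0.15, against -0.11 with all members.

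After these came oar-miR-380-3p at 68.9 CPM, oar-miR-3959-5p at 29.3 CPM, oar-miR-487b-3p at 27.0 CPM, oar-miR-381-3p at 26.1 CPM and oar-miR-379-5p at 23.2 CPM, all as means over 12 libraries. A mean of at least 10 CPM was reached by 18 of the 39 entries, and the other 21 lay lower, down to 1.89 CPM for oar-miR-154a-3p, an arm of miR-154, which is linked to fibrosis in human lung fibroblasts. The median entry of the cluster had a mean of 7.06 CPM, against 32.8 CPM for the median of all 470 entries. Each library's floor of 3 counts lay between 0.169 and 1.33 CPM before scaling. At least 1 library had 0 counts for 13 of the 39 entries. In PPHN 8, 11 entries had 0 counts, which allows a level of up to 1.13 CPM before scaling, and 31 of the 39 entries had at most 3 counts there. These floors and the intervals below cover counting error only.

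High and low miRNAs lay next to each other along the region. In the sheep gene table of the ARS-UI_Ramb_v3.0 assembly, which was used for names and gene order only, 46 miRNA hairpins follow each other from MIR379 to MIR323C, with no other gene starting between them. The rule names 45 of these hairpins, and 30 have a member entry. The hairpins with the highest summed levels stood at both ends of the row: MIR411A was number 2, with a mean of 1330 CPM over both arms, while MIR409 was number 42 with 482 CPM and MIR410 was number 45 with 185 CPM. The exception in the upper 4 was MIR3958, number 15, with 171 CPM. MIR495 and MIR543, the hairpins just before it in that row, stayed at means of 5.35 and 5.19 CPM. The hairpin just after it, MIR376E, has no member entry.

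**Figure D1:**
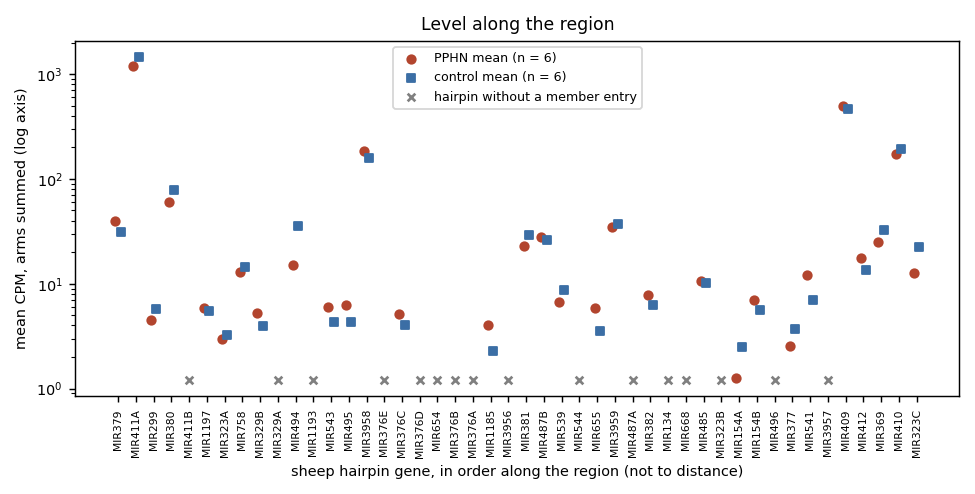
Mean level of each sheep hairpin of the cluster in PPHN (circles) and control (squares) in CPM, with both arms summed, on a log axis, against its order along the region; crosses mark hairpins without a member entry. MIR411A, MIR409, MIR410 and MIR3958 lie above 100 CPM in both groups, and most others lie between 1 and 100 CPM.

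The members varied widely between libraries, and they did so together. The summed level of the cluster was 3465 CPM in PPHN 7, 156 CPM in PPHN 8, 3298 CPM in PPHN 9, 777 CPM in PPHN 10, 7913 CPM in PPHN 11 and 1638 CPM in PPHN 12. In the controls it was 3102 CPM in control 1, 290 CPM in control 2, 4767 CPM in control 3, 448 CPM in control 4, 4182 CPM in control 5 and 5870.5 CPM in control 6. The highest and the lowest library were thus both PPHN libraries, and the control values lay between them. The sum averaged 2874 ± 2801 CPM in the PPHN libraries and 3110 ± 2305 CPM in the control libraries (SD, n = 6 each), a difference far smaller than the spread within each group. PPHN 11 alone carried much of the PPHN mean. Without it the mean was 1867 ± 1481 CPM in PPHN (n = 5), and the log2 ratio of the means, PPHN over control, was -0.74 in place of -0.11. Without PPHN 8, PPHN 11 and control 2 together it was -0.68.

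Counting error was small beside this spread. In CPM without TMM scaling, the cluster stood at 175 in PPHN 8 (466 counts, exact Clopper-Pearson 95% interval 160 to 192) and at 8697 in PPHN 11 (19569 counts, 8576 to 8819). The share of the listed counts was 0.0175% in PPHN 8 and 0.870% in PPHN 11. In these bulk samples, fewer cells that express the cluster and less RNA per cell cannot be told apart.

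**Figure D2:**
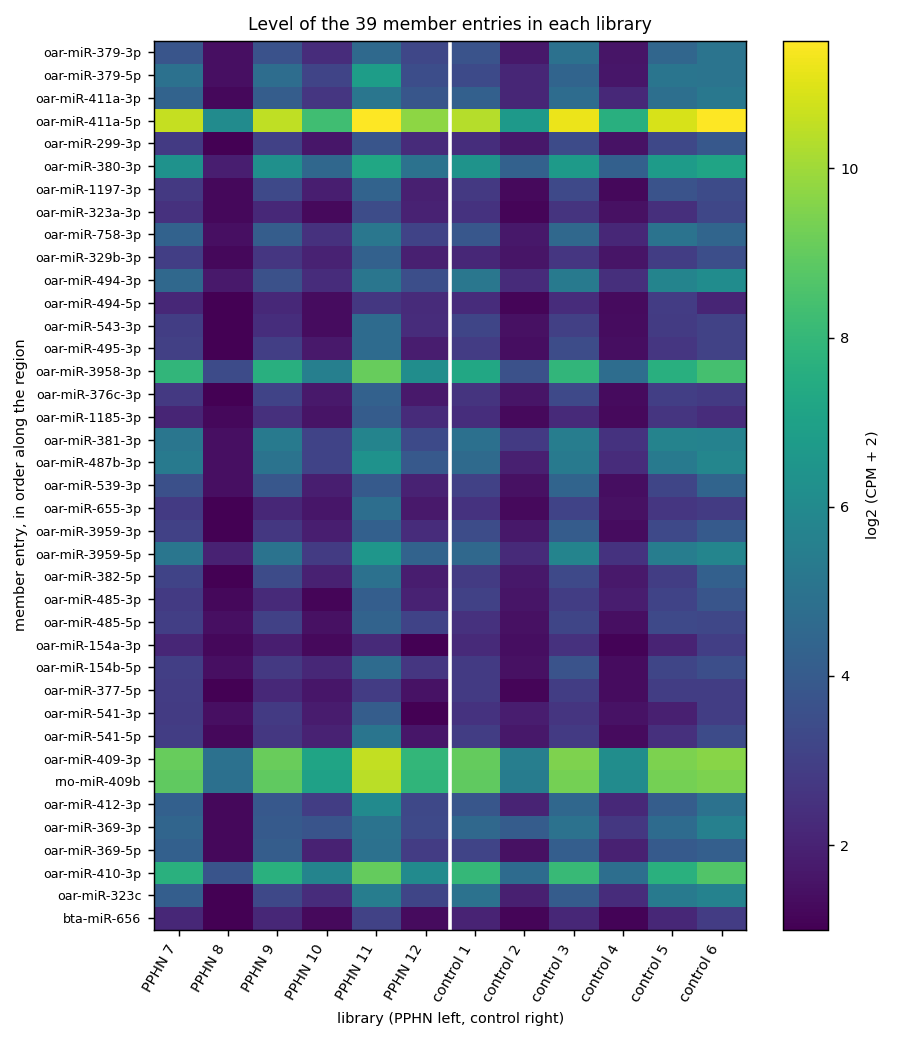
Level of each of the 39 member entries (rows, in order along the region) in each library (columns, PPHN left and control right), as log2 of CPM plus 2. The columns PPHN 8, PPHN 10, control 2 and control 4 are the 4 darkest for 32 entries, and PPHN 11 is the brightest column for 29 entries. The rows of oar-miR-411a-5p and of the miR-409 entries are the brightest rows.

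The order of the libraries was nearly the same for every member. PPHN 8 was the lowest library for 32 of the 39 entries, and PPHN 11 was the highest for 29. The highest was control 6 for 9 of the other 10 entries, among them oar-miR-494-3p and oar-miR-369-3p, and control 5 for oar-miR-494-5p. The 4 lowest libraries were PPHN 8, PPHN 10, control 2 and control 4 for 32 entries. For 38 of the 39 entries, each of the 7 libraries with the highest sums lay above each of these 4. The exception was oar-miR-369-3p, known in human cells for acting on AU-rich mRNAs, where PPHN 9 with 13.9 CPM lay below control 2 with 14.6 CPM. The lead miRNA shows the pattern in each library. In PPHN, oar-miR-411a-5p had 1539 CPM in PPHN 7, 64.8 CPM in PPHN 8, 1459 CPM in PPHN 9, 307 CPM in PPHN 10, 2915.5 CPM in PPHN 11 and 845 CPM in PPHN 12. In control it had 1286 CPM in control 1, 101 CPM in control 2, 2327 CPM in control 3, 198 CPM in control 4, 1874 CPM in control 5 and 2858 CPM in control 6. The highest of these levels was 45 times the lowest, and each group spanned nearly the whole range.

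Over the 12 libraries, the median Pearson correlation of log2 CPM between pairs of members was 0.910 (741 pairs, range 0.536 to 1.00, median Spearman correlation 0.895). Among the 18 members with a mean of at least 10 CPM the median was 0.953, and among the 300 entries above that level outside the cluster and its neighbouring imprinted miRNAs it was 0.028. The 2 libraries whose sums lay farthest from the median were PPHN 8 and PPHN 11, and without them the median over the member pairs was 0.898. Without PPHN 8, PPHN 11 and control 2 it was 0.887. These are descriptions, since all points share the libraries, their totals and their scaling. The median SD of log2 CPM over the libraries was 1.54 for the 18 members above 10 CPM and 0.587 for the 300 other entries. The SD of log2 CPM was highest among these 18 for oar-miR-411a-5p (1.91), oar-miR-3958-3p (1.89) and oar-miR-409-3p (1.81), and lowest for oar-miR-369-3p (1.18), oar-miR-369-5p (1.25) and oar-miR-758-3p (1.30). The 2 added to CPM before the log narrows the spread of low entries, so this order depends in part on level. The ratio of highest to lowest CPM was 137 for oar-miR-369-3p, 84.8 for oar-miR-369-5p and 50.9 for oar-miR-758-3p. It was at most 61.9, in oar-miR-3958-3p, among the members named with the highest SD. The lowest levels of oar-miR-369-3p, oar-miR-369-5p and oar-miR-758-3p rest on 1 or 2 counts in PPHN 8. Single members followed the mean of the rest most closely for oar-miR-487b-3p (Pearson correlation 0.990). They did so least for oar-miR-541-3p (0.805), oar-miR-154a-3p (0.845) and oar-miR-369-3p (0.852), all over 12 libraries. Counting error is large for oar-miR-541-3p and oar-miR-154a-3p, with means of 3.77 and 1.89 CPM and 0 counts each in PPHN 12. The mean of oar-miR-369-3p was 18.5 CPM.

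The other miRNAs of the imprinted region moved with the cluster. Of 11 names listed by position upstream of the cluster, 8 had entries, 9 in all. These include oar-miR-127, which in mice lies antisense to Rtl1 and is known to lower its transcript. Their summed level was 143 CPM in PPHN 8, the lowest library, and 8431 CPM in PPHN 11, the highest, and the cluster's sum was 0.897 to 1.2 times theirs in each library. The entry oar-miR-127 alone had 128 CPM in PPHN 8 and 7536 CPM in PPHN 11. Each of the 9 entries correlated with the mean log2 CPM of the members at 0.855 to 0.991 over the 12 libraries, and 8 of the 9 were highest in PPHN 11. One hairpin inside the row that the rule does not name, MIR134, was looked up after its values were seen. Its entry oar-miR-134-5p, known in rat neurons for limiting dendritic spines, had at most 12.1 CPM, in PPHN 11, and at least 0.162 CPM, in control 4, with a correlation of 0.943 to the members.

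**Figure D3:**
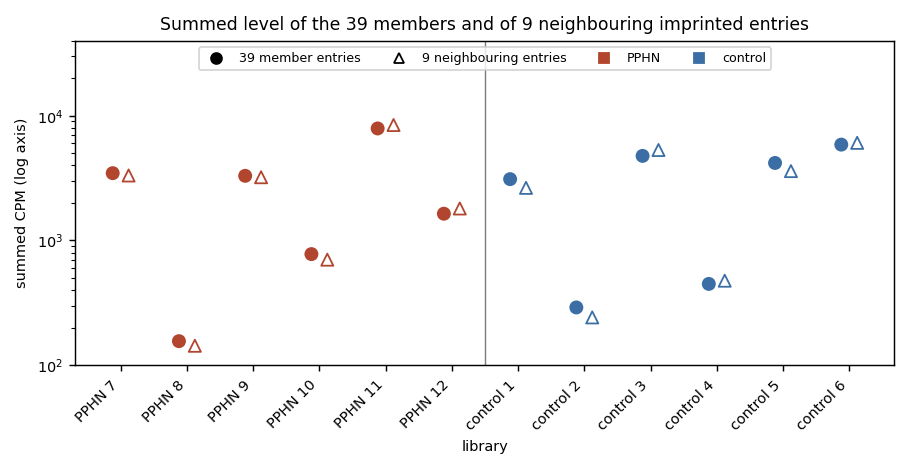
Summed level in CPM, on a log axis, of the 39 member entries (filled circles) and of the 9 neighbouring imprinted entries (open triangles) in each library, PPHN left and control right. The circle and the triangle of a library lie close together in all 12 libraries, from 156 and 143 CPM in PPHN 8 to 7913 and 8431 CPM in PPHN 11.

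Likeness to the cluster was also measured for every other entry with a mean of at least 10 CPM, without the neighbouring imprinted miRNAs. These entries were set apart by name, not by position. Among these 300, rno-miR-3578 was most like the cluster, with a Pearson correlation of 0.973 to the mean log2 CPM of the members over 12 libraries (Spearman correlation 0.944). Its counts nearly repeated those of oar-miR-369-5p, a member: 859 against 870 in total, and 0.958 to 1.01 times in each of the 10 libraries with at least 10 counts of oar-miR-369-5p. It was the only 1 of the 431 entries outside the cluster whose counts lay within 10% of a member in every such library. Reads of 1 miRNA may thus be counted in both rno-miR-3578 and oar-miR-369-5p. The next 4 were far behind: bta-miR-185 at 0.66, oar-let-7b at 0.65, bta-miR-1246 at 0.58 and bta-miR-2285z at 0.57. At the other end stood bta-miR-2284h-5p at -0.85, mmu-miR-98-3p at -0.83, hsa-miR-3184-3p at -0.79, bta-miR-340 at -0.77 and ssc-miR-296-5p at -0.76.

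Markers of other cells moved with the cluster in part. The summed smooth muscle miRNAs were 2158 CPM in PPHN 8, 2212 CPM in control 2, 4315 CPM in control 4 and 18374 CPM in PPHN 10, the 4 libraries with the least of the cluster. They were at least 104490 CPM in 6 of the other 8 libraries, but 2389 CPM in PPHN 11, which had the most of the cluster, and 7525 CPM in control 5. The fibroblast list was lowest in PPHN 11, at 496 CPM, and highest in control 3, at 20301 CPM. The 3 libraries with little miR-126 included the lowest and the highest of the cluster. The part of cell makeup in these levels was not tested.

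No member differed between PPHN and control beyond the spread between libraries. With edgeR's quasi-likelihood test, 0 of the 39 members and 0 of all 468 tested entries (0%) had a Benjamini-Hochberg adjusted p under 0.05. All 39 passed the filter on low counts. At an unadjusted p under 0.05 there were 0 members, against 49 of the 468 entries, or 10.5%. DESeq2 called 0 members and 12 of 468 entries (2.56%), and limma-voom called 0 members. The CPM ranges of PPHN and control overlapped for each of the 39 members, while they did not overlap for 6 of the 468 entries (1.28%). In the authors' deposited table the lowest q-value of a member was 0.478 in the column that follows the DESeq2 p-values, where 12 of 470 entries (2.55%) lay under 0.05, and the lowest member q-value from edgeR was 0.613.

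The members split evenly by direction. In PPHN 20 were higher and 19 lower, with a median log2 fold change of 0.03, while of all tested entries 213 were higher and 255 lower, with a median of -0.08. The even split rests on PPHN 11: without it the median of the members was -0.71, and without PPHN 8, PPHN 11 and control 2 it was -0.67. The log2 fold changes of the members ran from -1.33 to 0.96. Their standard errors ran from 0.71 to 1.03, with a median of 0.89, against a median of 0.42 over all tested entries. For oar-miR-411a-5p the log2 fold change was -0.28 (SE 0.88), for oar-miR-409-3p 0.08 (SE 0.87), for oar-miR-410-3p -0.16 (SE 0.87) and for oar-miR-3958-3p 0.19 (SE 0.93).

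The member with the lowest p was oar-miR-494-3p, 1 of the miRNAs whose block aided blood flow in mice. It had 21.3, 1.34, 10.1, 3.02, 33.2 and 9.50 CPM in PPHN 7 to 12 in order. In control 1 to 6 it had 34.3, 2.96, 37.0, 3.31, 52.0 and 67.6 CPM. PPHN 8, the lowest PPHN library, rests on 4 counts and control 2, the lowest control, on 15, and 4 controls exceeded the highest PPHN library. The means were 13.1 ± 12.1 CPM for PPHN and 32.9 ± 25.9 CPM for control (SD, n = 6 each), a log2 fold change of -1.33 (SE 0.87, edgeR adjusted p = 0.623). The other members with the lowest p on the lower side were oar-miR-154a-3p, at -0.93 (SE 0.89, edgeR adjusted p = 0.780), and oar-miR-369-3p, at -0.74 (SE 0.71, edgeR adjusted p = 0.780).

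On the higher side the lowest p belonged to oar-miR-1185-3p, oar-miR-379-5p and oar-miR-541-5p, with log2 fold changes of 0.78 (SE 0.83), 0.96 (SE 1.03) and 0.88 (SE 0.95) and edgeR adjusted p-values of 0.835, 0.839 and 0.843. The first hairpin of the row gives oar-miR-379-5p, which had 28.7, 0.668, 24.7, 6.97, 114 and 9.28 CPM in PPHN 7 to 12. In control 1 to 6 it had 8.30, 2.37, 18.7, 1.13, 32.3 and 31.4 CPM. PPHN 11 stood far above every other library, and the remaining PPHN values lay within the control range or below it. Without PPHN 11 the log2 fold changes were -0.18 for oar-miR-1185-3p, -0.15 for oar-miR-379-5p and -0.50 for oar-miR-541-5p, so that none of the 3 was higher in PPHN without that library.

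**Figure D4:**
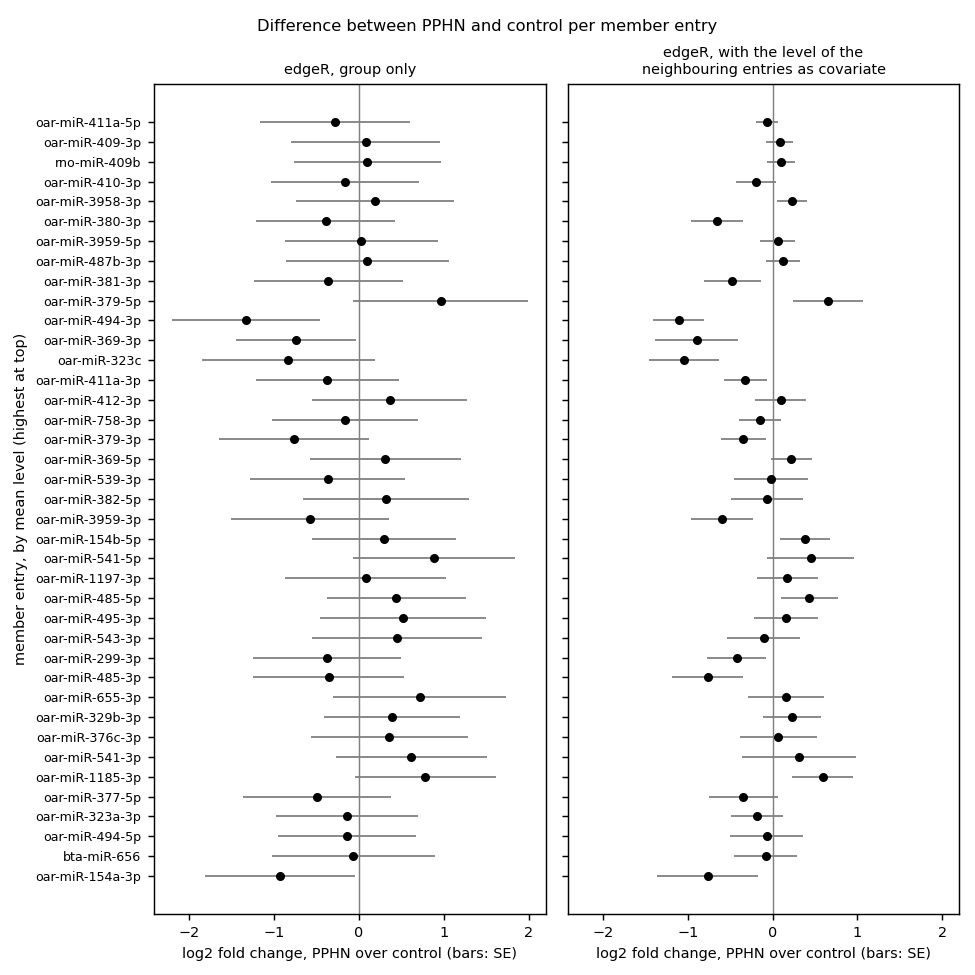
Log2 fold change of PPHN over control for each of the 39 member entries (points, highest mean level at the top), with bars of 1 standard error, from edgeR with the group alone (left) and with the level of the neighbouring imprinted entries as a covariate (right). The median bar is 0.89 on the left and 0.35 on the right, and oar-miR-494-3p lies lowest on both sides, at -1.33 and -1.11.

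Since the members rose and fell together between libraries, their balance within the cluster varied much less than their level. The share of oar-miR-411a-5p in the counts of the cluster was at most 51.6%, in PPHN 12, and at least 34.7%, in control 2, with means of 43.0 ± 5.1% in PPHN and 43.8 ± 5.3% in control (SD, n = 6 each). For oar-miR-409-3p it was at most 18.6%, in PPHN 11, and at least 13.5%, in control 6. Such narrow ranges are partly built in, since these entries make up much of the total. Some smaller members shifted more. The highest share was 23.5 times the lowest for oar-miR-369-3p, whose lowest rests on 1 count in PPHN 8, and 5.70 times for oar-miR-379-5p. In CPM, their highest level was 137 and 171 times the lowest. For oar-miR-494-3p the share was 0.614% in PPHN 7, 0.858% in PPHN 8, 0.307% in PPHN 9, 0.388% in PPHN 10, 0.419% in PPHN 11 and 0.580% in PPHN 12. In the controls it was 1.11% in control 1, 1.02% in control 2, 0.776% in control 3, 0.740% in control 4, 1.24% in control 5 and 1.15% in control 6. Every control share lay above every PPHN share but that of PPHN 8, which rests on 4 of 466 counts (exact Clopper-Pearson 95% interval 0.234 to 2.18%). The mean share was 0.528 ± 0.20% in PPHN and 1.01 ± 0.21% in control (SD, n = 6 each). The ratio of mean shares was more unequal for oar-miR-369-3p and oar-miR-323c, both with overlapping ranges. The former had 0.584 ± 0.432% in PPHN and 1.45 ± 1.76% in control, where control 2 alone had 5.04% (SD, n = 6 each). The latter had 0.342 ± 0.194% in PPHN and 0.707 ± 0.233% in control (SD, n = 6 each). With PPHN 8 included, the shares of PPHN and control overlapped for all 39 members. Without it they did not overlap for 1, oar-miR-494-3p. Such shares exist only for members, so this 1 of 39 cannot be set against a count over all entries.

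A related question was put to the counts by an edgeR fit of all entries, chosen after seeing the data. Its covariate is the summed level of the 9 neighbouring imprinted entries, not that of the cluster. The median standard error was 0.35 for the members in that fit, and also 0.35 over all tested entries. No member passed the adjusted threshold, 18 members were higher in PPHN and 21 lower, and 2 members had an unadjusted p under 0.05, against 59 of 468 entries (12.6%). These were oar-miR-494-3p, with a log2 fold change of -1.11 (SE 0.30, edgeR adjusted p = 0.178), and oar-miR-323c, with -1.04 (SE 0.42, edgeR adjusted p = 0.356), a member named after its values were seen. Leaving out each library in turn, the value of oar-miR-494-3p ran from -1.27 to -0.99 with edgeR adjusted p-values of 0.115 to 0.354. The value of oar-miR-323c ran from -1.37 to -0.91 with edgeR adjusted p-values of 0.115 to 0.576, and its unadjusted p was above 0.05 without control 1 and without control 5. The entry oar-miR-323c belongs to the last hairpin of the row, and its level was 12.6 ± 15.4 CPM for PPHN and 22.4 ± 19.0 CPM for control (SD, n = 6 each).

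A different imbalance belonged to a single library. In control 2, oar-miR-369-3p made up 5.04% of the cluster (74 of 1469 counts, exact Clopper-Pearson 95% interval 3.98 to 6.28%), against a median of 0.593% over the 12 libraries, and PPHN 10 was next with 1.43%. In control 2 oar-miR-380-3p also had its highest share, 5.92%, against a median of 2.35%.

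Arm use could be read for the 7 hairpins with entries for both arms. The 5p arm led in 5 of them, by total counts over the 12 libraries: miR-411a (98.8% 5p), miR-3959 (82.2%), miR-379 (63.2%), miR-541 (56.9%) and miR-485 (53.5%). The 3p arm led in the others, miR-369 with 37.3% 5p and miR-494 with 9.47% 5p. By library, the lead was not always the same. For miR-485 the 5p arm led in 6 of 6 PPHN libraries, with a mean of 66.7 ± 11.1%, and the 3p arm led in 4 of 6 controls, with a mean 5p share of 43.9 ± 9.7% (SD, n = 6 each), though 2 PPHN libraries and 1 control had under 10 counts. For miR-379 the 5p arm led in 5 PPHN and 3 control libraries, and for miR-541 in 4 of each group. Among the 25 remaining member entries, 19 are named 3p, 3 are named 5p and 3 name no arm. The dominance of the 5p arm of miR-411a held in each library, with at most 99.5% in PPHN 8 and at least 97.7% in control 2.

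A comparison of arm use in all 12 libraries was possible at a minimum of 10 counts of both arms in each library. That left 42 hairpins of the table and, of the cluster, miR-411a only. Its log2 ratio of 5p to 3p was 6.45 ± 0.33 in PPHN and 6.16 ± 0.42 in control (SD, n = 6 each), a difference of 0.30 (exact two-sided permutation p = 0.232, Benjamini-Hochberg adjusted over the 42 hairpins 0.518). Without PPHN 8, PPHN 11 and control 2 the difference was -0.01.

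With the libraries under 10 counts left out per hairpin, a choice made after seeing the data, all 7 hairpins and 53 of the table could be compared. The mean log2 ratio of 5p to 3p was higher in PPHN for all 7 hairpins of the cluster, and for 37 of the 53 hairpins in all. The median difference in the log2 ratio, PPHN minus control, was 1.06 over the 7 and 0.19 over the 53. With PPHN 8, PPHN 11 and control 2 left out, 5 hairpins of the cluster and 49 of the table had enough counts in every library. There the ratio was higher in PPHN for 4 of the 5 and 27 of the 49, and the median differences were 0.45 and 0.15. An unadjusted p under 0.05 was found for 2 of the 7, against 14 of the 53 (26.4%), and 0 of the 53 passed after adjustment. For miR-494 the log2 ratio was -2.35 ± 0.60 in PPHN (SD, n = 5) and -3.53 ± 0.70 in control (SD, n = 6), with an exact two-sided permutation p of 0.0130 (adjusted 0.0983). This difference of 1.18 uses the same oar-miR-494-3p counts as the shares above, while oar-miR-494-5p had 2.18 ± 1.63 CPM for PPHN and 2.39 ± 1.89 CPM for control (SD, n = 6 each).

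For miR-379 the 5p arm made up 70.9% in PPHN 7, 70.4% in PPHN 9, 69.8% in PPHN 10, 83.9% in PPHN 11 and 55.3% in PPHN 12, with 2 of 4 counts in PPHN 8. In the controls it made up 42.9% in control 1, 66.7% in control 2, 39.7% in control 3, 51.9% in control 4, 61.3% in control 5 and 50% in control 6. The PPHN values thus lay above the controls apart from PPHN 12 and PPHN 8. The log2 ratio was 1.28 ± 0.74 in PPHN without PPHN 8 (SD, n = 5) and 0.12 ± 0.60 in control (SD, n = 6), with an exact two-sided permutation p of 0.0216 (adjusted 0.115). Without PPHN 8, PPHN 11 and control 2, the differences were 1.05 for miR-379 and 1.34 for miR-494, each with an exact two-sided permutation p of 0.0317 (adjusted 0.173).

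Neither these nor the 4 remaining hairpins passed after adjustment. The differences in log2 ratio of the 4 were 1.18 for miR-485 (exact two-sided permutation p = 0.0794), 1.06 for miR-369 (0.154), 0.46 for miR-3959 (0.188) and 0.19 for miR-541 (0.648). The difference without PPHN 8, PPHN 11 and control 2 was 0.45 for miR-369 and 0.29 for miR-3959 (exact two-sided permutation p = 0.429 for each), while miR-485 and miR-541 had too few counts to compare. For miR-369 a pair of libraries had few 5p counts, with 15.7% 5p in PPHN 10 and 5.13% in control 2, the same libraries in which oar-miR-369-3p had its highest shares of the cluster. The 5p share of miR-369 in the remaining libraries with at least 10 counts was 40 to 52.4% in PPHN and 24.1 to 36.8% in control.

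**Figure D5:**
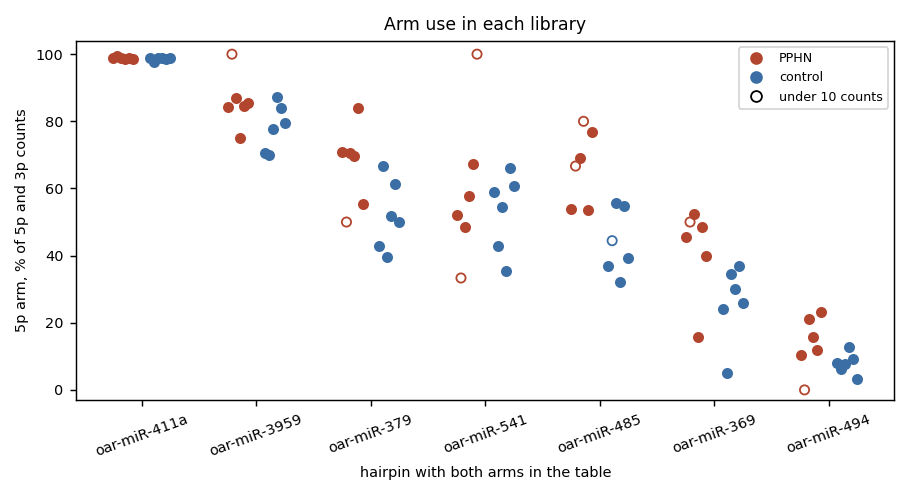
Share of the 5p arm in the 5p and 3p counts of each of the 7 hairpins with both arms, in percent, 1 point per library, PPHN left of control within each hairpin; open points rest on under 10 counts. The points of miR-411a lie between 97.7 and 99.5%, those of miR-379 are mostly higher in PPHN than in control, and PPHN 10 and control 2 lie lowest for miR-369.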

How the data were processed

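Small RNA libraries of 6 PPHN and 6 control samples were analysed. The authors deposited a table of raw read counts per miRNA entry, with p-values, q-values and log2 fold changes from DESeq, DESeq2 and edgeR, per the file headers; 1 column of q-values names no tool. Trim Galore 0.2.5 and Bowtie 1.1.1 appear in the submitters' processing notes; neither settings nor a genome build or miRNA reference is stated there. One read may count for several near-identical entries, and totals over the listed entries are not the sequencing depth. There were 0 columns of other samples.

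Members, lists and comparisons were chosen with earlier results of these data known. The main test was edgeR's robust quasi-likelihood test (edgeR 4.0.16, R 4.3.3) on the 468 entries that filterByExpr kept (TMM scaling; Benjamini-Hochberg adjustment over all tested entries, threshold 0.05). The common biological coefficient of variation was 0.73. Correlations used log2 CPM with a prior count of 2. Arm use was the log2 ratio of 5p to 3p counts with 0.5 added to each, compared by exact two-sided permutation over 924 assignments of 6 against 6, or fewer where libraries were left out. The edgeR fit was tested on simulated data.

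Named entries are the 10 most abundant members, the 3 with the lowest p in each direction, both arms of hairpins tested for arm use, members with the highest and lowest SD above 10 CPM, and the 5 entries most and least like the cluster. The alternatives were DESeq2 1.42.0 and limma-voom (limma 3.58.1) in place of edgeR, RLE or upper-quartile in place of TMM scaling, no filter, a filter of 10 CPM in 6 libraries, sheep-named entries only, other measures and count minimums, and leaving out each library in turn or PPHN 8, PPHN 11 and control 2 together. The covariate fit and the arm comparison with low libraries left out were chosen after seeing the data.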

Additional observations from a re-analysis of the deposited data

Results flagged for a closer look

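Of 94 groups of 6 libraries, 21 had 1 library far from the others of its group. The rule was Dixon's: a gap to the nearest library above 0.625 of the range of the group. Libraries with low counts of a hairpin were kept. The usual rate of 5% flagged by chance holds for normally distributed values. Member levels entered as CPM without logs, a scale on which a high library stands out more, so the 21 cannot be set against that rate. Of the 21, 18 were PPHN 11. As the highest PPHN library it had 1473.5 CPM of oar-miR-409-3p, 1356 CPM of rno-miR-409b, 114 CPM of oar-miR-379-5p, 90.2 CPM of oar-miR-3959-5p and 62.7 CPM of oar-miR-412-3p. It had 42.1 CPM of oar-miR-323c, 31.5 CPM of oar-miR-541-5p, 28.7 CPM of oar-miR-382-5p, 25.5 CPM of oar-miR-655-3p and 23.9 CPM of oar-miR-543-3p. Both oar-miR-495-3p and oar-miR-154b-5p stood at 23.5 CPM there. The remaining 6 were oar-miR-485-5p at 18.2 CPM, oar-miR-329b-3p at 17.4 CPM, oar-miR-3959-3p at 16.6 CPM, oar-miR-485-3p at 15.8 CPM, oar-miR-541-3p at 15.4 CPM and oar-miR-1185-3p at 14.6 CPM. These entries share 1 library and move together, so the flags are not independent.

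The other 3 concern arm use. The log2 ratio of 5p to 3p of miR-369 was -2.37 in PPHN 10, where the other PPHN libraries lay between -0.58 and 0.14, and -4.05 in control 2, where the other controls lay between -1.64 and -0.78. For miR-411a it was 5.35 in control 2, where the other controls lay between 6.15 and 6.58.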

How the results depend on the processing

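No paired analysis was possible because the library numbers, 7 to 12 in PPHN and 1 to 6 in control, are not shared between the groups. Few counts limit the low members: in PPHN 8, 31 of 39 entries had at most 3 counts. PPHN 11 had a lower total over the listed entries, 2250077 against 2655849 counts in PPHN 8. Its median member nevertheless had 63 counts, against 1 in PPHN 8. The number of entries called in the whole table was 12 with DESeq2 and 0 to 1 with 1 library left out (1 without PPHN 8), with 0 members called under every alternative run. With 1 library left out, the median log2 fold change of the members ran from -0.71 to 0.28, the log2 ratio of summed levels from -0.74 to 0.17, the median pairwise correlation from 0.895 to 0.921 and the miR-411a arm difference from 0.14 to 0.38. Without PPHN 8, PPHN 11 and control 2 the miR-411a difference turned to -0.0079.

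Among named members, 39 alternative values changed sign; the cause was not tested, and none had passed the threshold. With limma-voom these were oar-miR-409-3p (log2 fold change -0.0114) and oar-miR-3959-5p (-0.0255). Without PPHN 8, PPHN 11 and control 2 they were oar-miR-409-3p (-0.61), rno-miR-409b (-0.60), oar-miR-3958-3p (-0.47), oar-miR-3959-5p (-0.68), oar-miR-487b-3p (-0.50), oar-miR-379-5p (-0.068), oar-miR-369-5p (-0.12), oar-miR-541-5p (-0.44) and oar-miR-1185-3p (-0.18). With 1 library left out, the lowest value came without PPHN 11 for each of these members: -0.77 to 0.040 for oar-miR-411a-5p, -0.65 to 0.33 for oar-miR-409-3p, -0.63 to 0.35 for rno-miR-409b, -0.88 to 0.17 for oar-miR-410-3p, -0.52 to 0.55 for oar-miR-3958-3p, -0.72 to 0.28 for oar-miR-3959-5p, -0.55 to 0.45 for oar-miR-487b-3p, -0.15 to 1.31 for oar-miR-379-5p, -0.71 to 0.19 for oar-miR-758-3p, -0.18 to 0.56 for oar-miR-369-5p, -0.50 to 1.24 for oar-miR-541-5p and -0.18 to 1.04 for oar-miR-1185-3p.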
